A study of Mus musculus with 6 samples.

Results

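Splenocytes of mice given ethinyl estradiol (EE) were set against splenocytes of mice given natural estradiol (E2), across every gene row of an immune expression panel. The samples were chosen by their treatment label, which gave 2 EE and 2 E2 samples of the 6 in the series, and 561 gene rows were measured in each. All samples came from female NZB/WF1 mice, a cross whose females spontaneously develop an autoimmune disease resembling lupus. Implants were placed when the animals were 6 to 7 weeks old and left for 9 weeks. The E2 group (replicates 1 and 2) carried 17-beta estradiol, the EE group (replicates 11 and 14) carried 17alpha-ethinyl estradiol, and the placebo group (replicates 22 and 26) carried an empty implant. Placebo values are printed beside the estrogen values as the untreated level. The sources used here give neither the implant doses nor the ovarian status of the mice, and whether the doses matched is therefore unknown. Nothing ties a sample to a separate animal, and p-values here reflect only the spread among the samples at hand, which may be technical.

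E2 is the main natural estrogen, and EE is the same steroid with an added ethynyl group at the 17-alpha carbon, used in many oral contraceptives. Both activate estrogen receptors, nuclear receptors that bind palindromic response elements in DNA and regulate genes in lymphocytes, myeloid cells and stromal cells. The mouse spleen holds B cells, T cells and red pulp macrophages, and it can also form neutrophils, erythroid cells and megakaryocytes outside the bone marrow.

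RNA was measured on the NanoString nCounter mouse immunology panel, in which colour-coded probes bound to RNA are counted without amplification. The deposited values carry signs of scaling and rounding before deposit, and gene values summed to between 646299 and 863942 per sample. Background, the mean plus 2 SD of the negative control probes, lay between 10.15 and 13.74, and 475 to 498 genes per sample exceeded it. B cell markers, which define the most common lymphocyte of the mouse spleen, summed to between 107576 and 120267 in the 4 estrogen samples. Of those sums Cd74, also listed as a dendritic cell marker, gave 57307 to 65758. T cell markers summed to between 14204 and 21187 in the same samples, and no gene was listed at 0 in any sample. The median absolute log2 difference between replicates was 0.193 in E2, 0.109 in EE and 0.192 in placebo. The first principal component parted both estrogens from placebo and held 85% of the variance. The second held 9.41% and parted E2 (-4.197 and -4.445) from EE (4.771 and 3.354), with placebo between them (-0.2458 and 0.7628).

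The question was where the response of the spleen to an estrogen with the ethynyl group departs from that to the natural one, and this is the 1 pair of compounds set against each other. Genes of neutrophils were lower in EE than in E2, genes of megakaryocytes and platelets were higher, and C1q and other macrophage genes were higher. Several T cell genes were lower. Of 457 genes tested, 74 passed an adjusted p of 0.05 in limma, or 16.2%. Of these, 24 were higher in EE (5.25%) and 50 were lower (10.9%). Differences are given as log2 of EE minus log2 of E2 on deposited values plus 1, so that 1 unit is a 2-fold difference, with a standard error (SE). Every p-value is two-sided, with Benjamini-Hochberg adjustment across all 457 genes. Among called genes, 5 were more than 2-fold higher and 10 were more than 2-fold lower. Both EE samples lay beyond both E2 samples for 268 genes, or 58.6%, among them all 74 called genes. At an unadjusted p under 0.05, 131 of the 457 passed, or 28.7%, the share beside which list counts at that level are to be read.

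**Figure D1:**
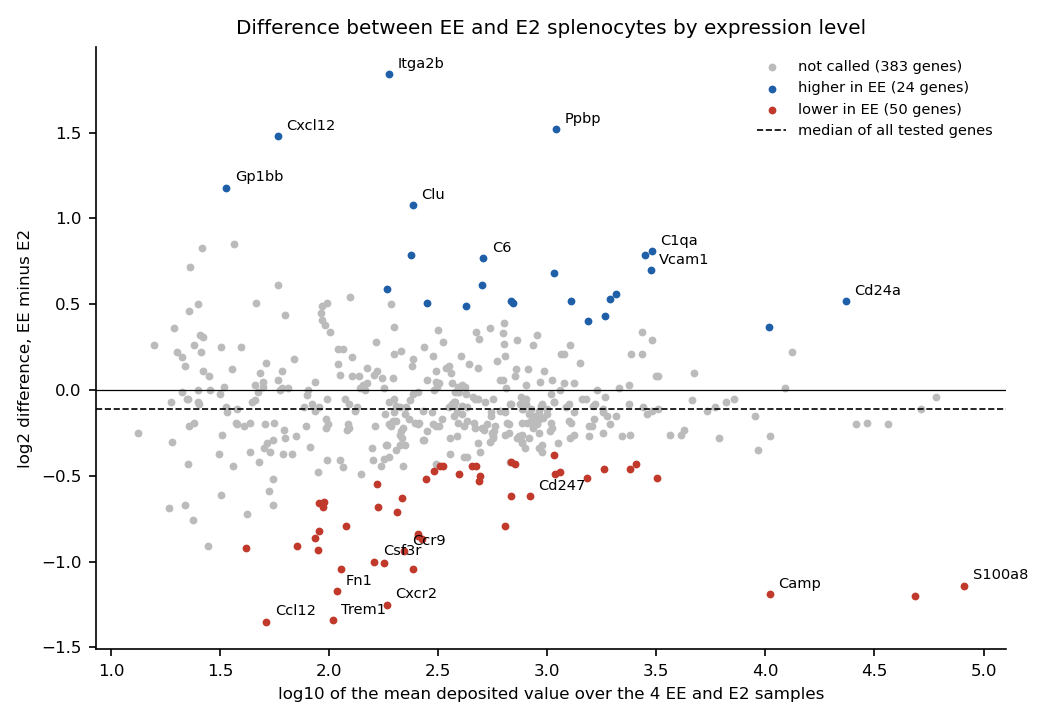
Each point is 1 of the 457 tested genes. The horizontal axis is log10 of the mean deposited value over the 4 estrogen samples and the vertical axis is the log2 difference, EE minus E2. Blue points are the 24 genes higher in EE, red points the 50 lower, grey points the 383 not called, and the dashed line is the median of all tested genes at -0.11.

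The balance of higher and lower genes moved with the scaling. The median gene lay at -0.11 in the deposited values, and between -0.32 and 0.15 over the 8 scalings run. With median-ratio size factors, which place the median gene near 0, 35 genes were higher and 25 lower, and 58.3% of the called genes were higher in place of 32.4%. Scaling on column totals gave 83 higher and 17 lower, and scaling on the positive control probes gave 11 and 121. The direction of each of the 74 called genes held in every setting in which it was called. Under all 8 scalings 11 genes were called higher and 13 lower. When each estrogen sample was also left out in turn, 7 stayed called higher (C1qa, C1qb, Itga2b, Vcam1, Clu, Cxcl12 and Ppbp). Under the same demand 8 stayed called lower (Clec5a, Itgam, Csf3r, Ccr9, Ccr2, Camp, Fn1 and Trem1).

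Neutrophil genes gave the most abundant differences. S100a8 and S100a9 encode the subunits of calprotectin, the main cytosolic protein of neutrophils, Camp encodes the antimicrobial peptide cathelicidin, and Ltf encodes lactoferrin, an iron-binding granule protein. Of the 5 granule and calprotectin genes tested, 4 were lower in EE and 0 were higher in limma, with a median of -1.14 against -0.11 for all tested genes. The remaining member is Ctsg, cathepsin G, and at an unadjusted p under 0.05 all 5 were lower. The median ranged from -1.34 to -0.88 over the scalings.

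S100a8 read 103948 and 120698 in E2, 47517 and 54555 in EE, and 5169 and 3189 in placebo. S100a9 read 63594 and 71032 in E2, 27545 and 31216 in EE, and 3413 and 2063 in placebo. Camp read 14127 and 15047 in E2, 5913 and 6879 in EE, and 584 and 369 in placebo. For all 3 genes both E2 samples were highest, both EE samples stood apart below them, and placebo was lower still. S100a8 fell by 1.14 ± 0.15 SE (adjusted p = 3.44e-11), S100a9 fell by 1.20 ± 0.14 (4.51e-13) and Camp fell by 1.19 ± 0.13 (9.52e-15). On the linear scale E2 exceeded EE 2.20-fold for S100a8 and 2.29-fold each for S100a9 and Camp. These transcripts together took 22.42% and 26.81% of all gene values in the E2 samples, 12.53% and 13.76% in EE, and 1.11% and 0.65% in placebo. Without them the sums over all other genes were 628554 and 564567 in E2 and 565324 and 580734 in EE, so that these groups overlapped.

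Ltf read 270 and 382 in E2, 146 and 166 in EE, and 26 and 25 in placebo, and fell by 1.04 ± 0.22 SE (adjusted p = 9.71e-05). Ctsg, a serine protease of primary granules, read 591 and 964 in E2 and 519 and 612 in EE. Its groups overlapped, and its difference of -0.42 had a 95% interval from -0.82 to -0.02 (adjusted p = 0.148). Under quantile normalisation S100a8 (0.113) and S100a9 (0.0936) missed the threshold, and without E2 replicate 2 Ltf did (0.0655). In a bulk sample such as these, fewer cells of a type and less RNA per cell cannot be told apart, here or for any gene group that follows.

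The 300 bases around the annotated starts of 5 genes are printed to show regulatory sequence next to the values, namely the calprotectin genes, the 2 platelet genes with the largest differences and C1qb. The windows run from 250 bases before to 50 bases after the start, 5' to 3' on the gene's strand, from RefSeq on assembly GRCm38.p6. Capitals mark each match on either strand to GGTCA, the core letters of an estrogen response element, and a match describes letters and is not a binding site.
S100a8 (chr3:90668821-90669120, + strand): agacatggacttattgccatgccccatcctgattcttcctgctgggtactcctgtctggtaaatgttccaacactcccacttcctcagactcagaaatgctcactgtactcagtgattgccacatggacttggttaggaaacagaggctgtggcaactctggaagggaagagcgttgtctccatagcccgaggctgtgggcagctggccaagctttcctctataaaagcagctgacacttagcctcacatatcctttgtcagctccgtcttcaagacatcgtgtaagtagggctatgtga
S100a9 (chr3:90695672-90695971, - strand): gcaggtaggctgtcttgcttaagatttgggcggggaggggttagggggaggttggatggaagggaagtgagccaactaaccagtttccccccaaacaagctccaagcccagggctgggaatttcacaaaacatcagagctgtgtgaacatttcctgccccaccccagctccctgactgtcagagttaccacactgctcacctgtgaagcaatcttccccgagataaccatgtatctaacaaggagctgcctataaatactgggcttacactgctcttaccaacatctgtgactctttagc
Ppbp (chr5:90768268-90768567, + strand): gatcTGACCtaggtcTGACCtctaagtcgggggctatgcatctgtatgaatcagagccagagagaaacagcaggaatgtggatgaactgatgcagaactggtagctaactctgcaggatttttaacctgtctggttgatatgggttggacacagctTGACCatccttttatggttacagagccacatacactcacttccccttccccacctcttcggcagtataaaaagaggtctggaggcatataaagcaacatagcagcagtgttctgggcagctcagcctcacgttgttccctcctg
Itga2b (chr11:102469834-102470133, - strand): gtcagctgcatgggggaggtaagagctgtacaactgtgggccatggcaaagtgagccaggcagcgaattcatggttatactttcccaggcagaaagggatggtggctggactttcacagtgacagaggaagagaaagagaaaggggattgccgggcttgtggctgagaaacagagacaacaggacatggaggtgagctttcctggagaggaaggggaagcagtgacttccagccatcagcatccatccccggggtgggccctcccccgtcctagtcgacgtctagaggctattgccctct
C1qb (chr4:136886151-136886450, - strand): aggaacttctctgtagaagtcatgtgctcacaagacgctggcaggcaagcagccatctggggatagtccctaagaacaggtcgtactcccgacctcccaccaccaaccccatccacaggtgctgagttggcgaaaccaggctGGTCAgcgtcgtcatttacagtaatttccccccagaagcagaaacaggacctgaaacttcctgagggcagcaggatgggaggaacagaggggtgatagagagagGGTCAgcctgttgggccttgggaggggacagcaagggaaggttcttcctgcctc

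The S100a8 and S100a9 windows, both on chromosome 3, held 0 matches each, as did Itga2b, while Ppbp held 3 and C1qb held 2. Across all 32851 windows, 40.5% held at least 1 match, and across the 513 windows of panel genes 35.9% did. Windows of genes higher in EE held it in 10 of 18 cases, or 55.6%, and windows of genes lower in EE in 10 of 49, or 20.4%. Windows were found for only 17 of the 24 higher genes and 40 of the 50 lower genes, and some genes had more than 1 window. The whole palindrome GGTCANNNTGACC occurred in 23 of the 32851 windows and in 0 of the panel windows. These shares are descriptions of the letters in short windows, with no test, and many response elements lie farther away.

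Receptors of neutrophils and other myeloid cells were lower in the same samples. Trem1 is a receptor that amplifies inflammatory signals, and Cxcr2 receives neutrophil-attracting chemokines. Csf3r is the receptor for granulocyte colony-stimulating factor, and Itgam is CD11b, the alpha chain of an adhesion receptor. Of 14 members tested, 8 were lower (57.1%) and 1 was higher, with a median of -0.53 that ranged from -0.73 to -0.27 over the scalings. Trem1 read 137 and 163 in E2, 53 and 64 in EE, and 61 and 40 in placebo. Cxcr2 read 236 and 282 in E2, 110 and 106 in EE, and 86 and 47 in placebo. Both E2 samples were the highest of the 6 for each gene, and the EE samples of Trem1 lay within or just above the placebo range. Trem1 fell by 1.34 ± 0.25 SE (adjusted p = 5.84e-06) and Cxcr2 fell by 1.25 ± 0.22 (1.72e-06). Under quantile normalisation Cxcr2 missed the threshold (0.0506).

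Csf3r read 208 and 222 in E2, 110 and 104 in EE, and 163 and 108 in placebo, a difference of -1.0 ± 0.21 SE (adjusted p = 4.56e-05). Clec5a, a myeloid lectin receptor, read 227 and 249 in E2 and 119 and 116 in EE, with placebo at 21 and 19. Itgam read 778 and 843 in E2, 435 and 505 in EE, and 275 and 227 in placebo. All 3 genes had E2 samples above EE samples without overlap, and Csf3r in EE was close to the lower placebo sample while Clec5a and Itgam stood above it. The differences were -1.01 ± 0.24 for Clec5a (0.000613) and -0.79 ± 0.15 for Itgam (2.24e-05). Ltb4r1, the receptor for the neutrophil attractant leukotriene B4, read 137 and 168 in E2, 73 and 74 in EE, and 36 and 25 in placebo. It fell by 1.04 ± 0.25 (0.00102), but by limma without E2 replicate 2 its adjusted p was 0.0862. Csf2rb, the shared chain of the receptors for interleukin-3, interleukin-5 and GM-CSF, differed by -0.63 (0.00503), and it lost the call when E2 replicate 1 (0.109), EE replicate 11 (0.152) or EE replicate 14 (0.0966) was left out. Lilra5, an immunoglobulin-like receptor of myeloid cells, was the member that was higher, at 218 and 243 in E2 and 316 and 343 in EE (0.51, adjusted p = 0.0306), and it lost its call without each estrogen sample in turn (0.093 to 0.327).

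**Figure D2:**
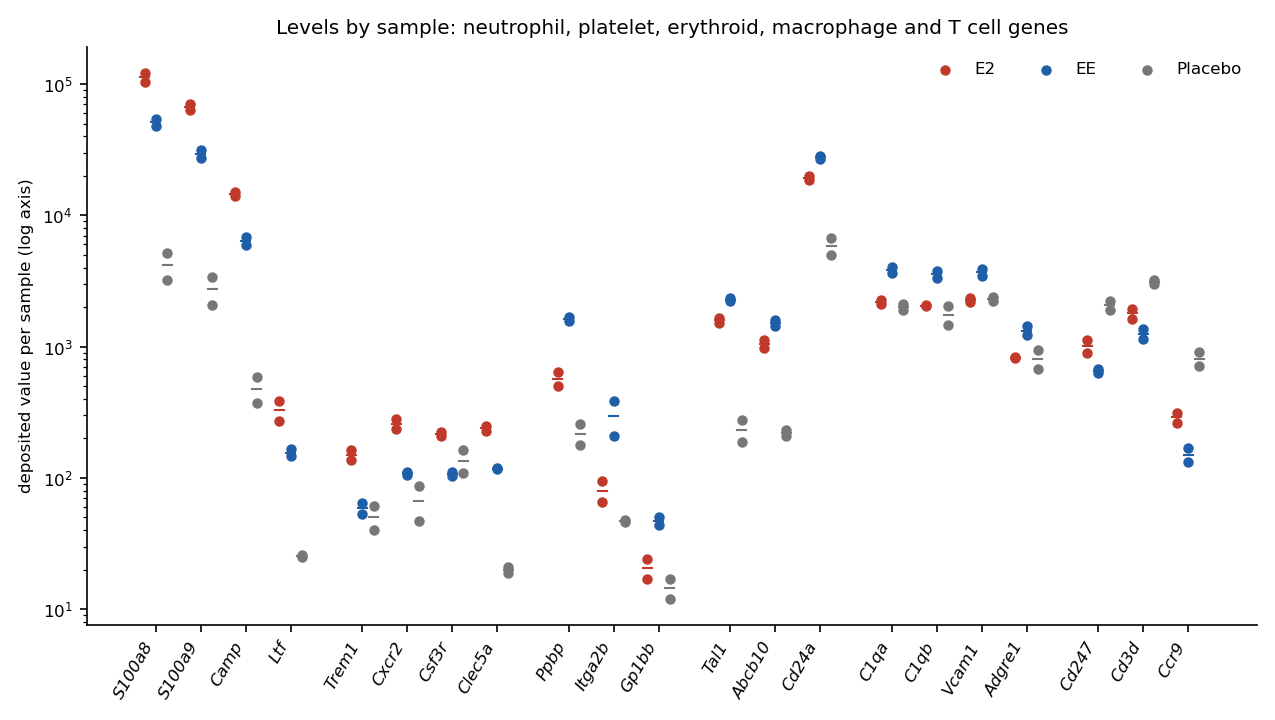
Deposited values of 21 genes on a log axis, with 1 point per sample, short lines for group means, and colours for E2, EE and placebo. S100a8, S100a9 and Camp stepped down from E2 to EE to placebo, whereas Ppbp and Itga2b were highest in both EE samples.

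Genes of megakaryocytes, the platelet-forming cells, gave the largest differences in the other direction. Itga2b encodes integrin alpha IIb of the platelet fibrinogen receptor, Ppbp encodes pro-platelet basic protein, a chemokine stored in platelet granules whose processed form acts on the receptor Cxcr2, and Gp1bb encodes a chain of the platelet receptor for von Willebrand factor. All 3 were higher in EE under each of the 8 scalings, and Cd9, a tetraspanin found on platelets and many leukocytes, was lower, out of 4 members tested. The median of the 4 was 1.35, from 1.15 to 1.61 over the scalings.

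Ppbp read 638 and 498 in E2, 1675 and 1564 in EE, and 256 and 178 in placebo, a difference of 1.52 ± 0.15 SE (adjusted p = 1.38e-17) or 2.87-fold. Itga2b read 94 and 66 in E2, 385 and 210 in EE, and 46 and 48 in placebo, a difference of 1.84 ± 0.23 (6.22e-12) or 3.58-fold. Both EE samples were the highest of the 6 for either gene, with E2 between EE and placebo, and the EE replicates themselves were unequal for Itga2b. Gp1bb read 24 and 17 in E2, 50 and 44 in EE, and 17 and 12 in placebo, a difference of 1.18 ± 0.36 (0.0102). Its E2 and placebo values lay close to background, and leaving out any estrogen sample ended its call, at 0.0607 without E2 replicate 1, 0.158 without E2 replicate 2, 0.225 without EE replicate 11 and 0.0713 without EE replicate 14. Cd9 read 1256 and 1176 in E2 and 967 and 899 in EE (-0.38, adjusted p = 0.0375), and it was called under 3 of the 8 scalings and lost its call without each estrogen sample in turn (0.116 to 0.391).

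Genes of erythroid precursors were also higher in EE, by less. Tal1 is a transcription factor of erythroid and megakaryocyte development, Abcb10 a mitochondrial transporter of developing red cells, Cd24a a surface glycoprotein of erythroid precursors and B cells, and Icam4 an adhesion molecule of red cells. These were the 4 members higher in EE out of 7 tested (57.1%), with 0 lower in limma and 0 lower at an unadjusted p under 0.05. The median was 0.51, from 0.31 to 0.77 over the scalings. Tal1 read 1521 and 1652 in E2, 2342 and 2224 in EE, and 275 and 189 in placebo. Cd24a read 18642 and 19953 in E2, 28163 and 27017 in EE, and 6658 and 4982 in placebo. The EE samples were highest for each, and the E2 samples lay well above placebo. The differences were 0.53 ± 0.14 SE for Tal1, 0.52 ± 0.14 for Cd24a (adjusted p = 0.00273 for both) and 0.52 ± 0.14 for Abcb10 (0.00381).

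Icam4 read 585 and 556 in E2, 891 and 745 in EE, and 97 and 52 in placebo (0.51 ± 0.17 SE, adjusted p = 0.0227). It was called under 3 of the 8 scalings and lost its call without each estrogen sample in turn. The transferrin receptor Tfrc, which brings iron into erythroid precursors, read 12165 and 12323 in E2, 14368 and 14188 in EE, and 2304 and 1810 in placebo. Its samples did not overlap, yet its difference of 0.22 had an interval from -0.03 to 0.48 (0.246). Kit, the receptor for stem cell factor, differed by -0.01 (0.993), and Cd59b, a complement inhibitor, by 0.31 (0.647). Scaled on the positive controls 0 of the 7 were called, and by limma 0 were called without E2 replicate 1, EE replicate 11 or EE replicate 14, and 2 without E2 replicate 2.

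Monocyte and macrophage genes differed in both directions, with C1qa, C1qb and 4 others higher and Ccr2 and Ccl12 lower. C1qa and C1qb encode chains of C1q, the first component of the classical complement pathway, which spleen macrophages make. Adgre1 encodes F4/80, the classical mouse macrophage marker, Vcam1 an adhesion molecule of red pulp macrophages and stromal cells, Fcgr1 the high-affinity IgG receptor, and Csf1r the receptor for macrophage colony-stimulating factor. Of 15 monocyte and macrophage genes tested, these 6 were higher and 2 were lower, with a median of 0.36 that ranged from 0.16 to 0.62 over the scalings. Summed over the 16 members on the panel, values were 13156 and 13044 in E2, 18656 and 20341 in EE, and 11980 and 10332 in placebo.

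C1qa read 2110 and 2266 in E2, 3625 and 4063 in EE, and 2094 and 1890 in placebo. C1qb read 2073 and 2029 in E2, 3317 and 3791 in EE, and 2029 and 1468 in placebo. Vcam1 read 2337 and 2203 in E2, 3459 and 3918 in EE, and 2405 and 2239 in placebo. In all 3 the EE samples stood alone at the top, and the E2 values lay within or close to the placebo values. The differences were 0.81 ± 0.13 SE for C1qa (adjusted p = 9.43e-08), 0.79 ± 0.13 for C1qb (3.38e-07) and 0.70 ± 0.13 for Vcam1 (5.16e-06), that is 1.75-fold, 1.73-fold and 1.62-fold. The highest adjusted p over all alternatives was 0.00677 for C1qa, 0.0469 for C1qb and 0.0288 for Vcam1.

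Adgre1 read 831 and 813 in E2, 1224 and 1425 in EE, and 935 and 680 in placebo (0.68 ± 0.14 SE, adjusted p = 3.9e-05). Fcgr1 read 155 and 192 in E2, 275 and 323 in EE, and 139 and 120 in placebo (0.79 ± 0.19, 0.000869). Csf1r read 1584 and 1531 in E2, 1968 and 2247 in EE, and 1616 and 1414 in placebo (0.43 ± 0.13, 0.00966). The EE samples of all 3 lay above the placebo range, as did the E2 samples of Fcgr1 but not those of Adgre1 or Csf1r. Without EE replicate 14 the adjusted p was 0.0581 for Adgre1 and 0.105 for Fcgr1, and without E2 replicate 1 it was 0.087 for Fcgr1. Csf1r lost its call without each estrogen sample in turn (0.0841 to 0.356). Cd163, the haemoglobin scavenger receptor of red pulp macrophages, differed by 0.36 (0.0916) and Marco, a scavenger receptor of marginal zone macrophages, by 0.61 (0.0924), both short of the threshold.

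Ccr2, the chemokine receptor of inflammatory monocytes, read 313 and 344 in E2, 193 and 170 in EE, and 358 and 317 in placebo. Ccl12, a mouse chemokine that acts on that receptor, read 65 and 84 in E2, 27 and 30 in EE, and 9 and 5 in placebo. EE samples were below E2 samples for both genes, and Ccr2 in EE was also below placebo. Ccr2 differed by -0.85 ± 0.17 SE (adjusted p = 3.81e-05) and Ccl12 by -1.35 ± 0.35 (0.00266). Ccl12 missed the threshold without E2 replicate 1 (0.0668), E2 replicate 2 (0.135) or EE replicate 11 (0.0742). Cx3cr1, the fractalkine receptor of patrolling monocytes, read 57 and 47 in E2 and 24 and 40 in EE (-0.72, 0.0591), and its placebo samples read 111 and 74.

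Among complement genes, C6 of the membrane attack complex and Cfp, properdin, which stabilises the alternative pathway convertase, were higher along with C1qa and C1qb. Of 13 complement genes tested, these 4 were higher (30.8%) and C3, the central component, was lower (7.7%). C6 read 365 and 387 in E2, 575 and 712 in EE, and 445 and 381 in placebo, and Cfp read 1709 and 1610 in E2, 2303 and 2606 in EE, and 1581 and 1400 in placebo. Neither gene overlapped between the estrogens, and in EE both exceeded placebo. The differences were 0.77 ± 0.15 SE for C6 (adjusted p = 3.64e-05) and 0.56 ± 0.13 for Cfp (0.000414), and without EE replicate 14 both missed the threshold (0.0687 and 0.115). C3 read 281 and 373 in E2 and 239 and 213 in EE (-0.52, adjusted p = 0.0459), was called under 3 of the 8 scalings and lost its call without each estrogen sample (0.127 to 0.404). Clu encodes clusterin, an inhibitor of the terminal complement complex that was not in the complement list, and read 169 and 141 in E2, 345 and 309 in EE, and 100 and 98 in placebo. Its difference of 1.08 ± 0.19 (3.95e-06) stayed called under every alternative.

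The Fc receptors, which bind antibodies, had 3 of 6 tested members higher and 0 lower in limma, with a median of 0.31, and Fcgr2b alone was lower at an unadjusted p under 0.05. Beside Fcgr1, Fcgr4, an activating IgG receptor, read 413 and 384 in E2, 577 and 637 in EE, and 646 and 256 in placebo (0.61, adjusted p = 0.00381). Fcgrt, the neonatal Fc receptor that recycles IgG, read 592 and 525 in E2, 816 and 782 in EE, and 619 and 630 in placebo (0.52, 0.00447). Neither overlapped between estrogens, but the 2 placebo samples of Fcgr4 lay on either side of them. Fcgr4 was called under 3 of the 8 scalings and lost its call with a robust prior for the spread (0.584), without E2 replicate 1 (0.366), E2 replicate 2 (0.295) or EE replicate 14 (0.125). Fcgrt lost it without E2 replicate 2 (0.0857), EE replicate 11 (0.233) or EE replicate 14 (0.0871). Fcgr2b, the inhibitory IgG receptor, differed by -0.27 (0.152).

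**Figure D3:**
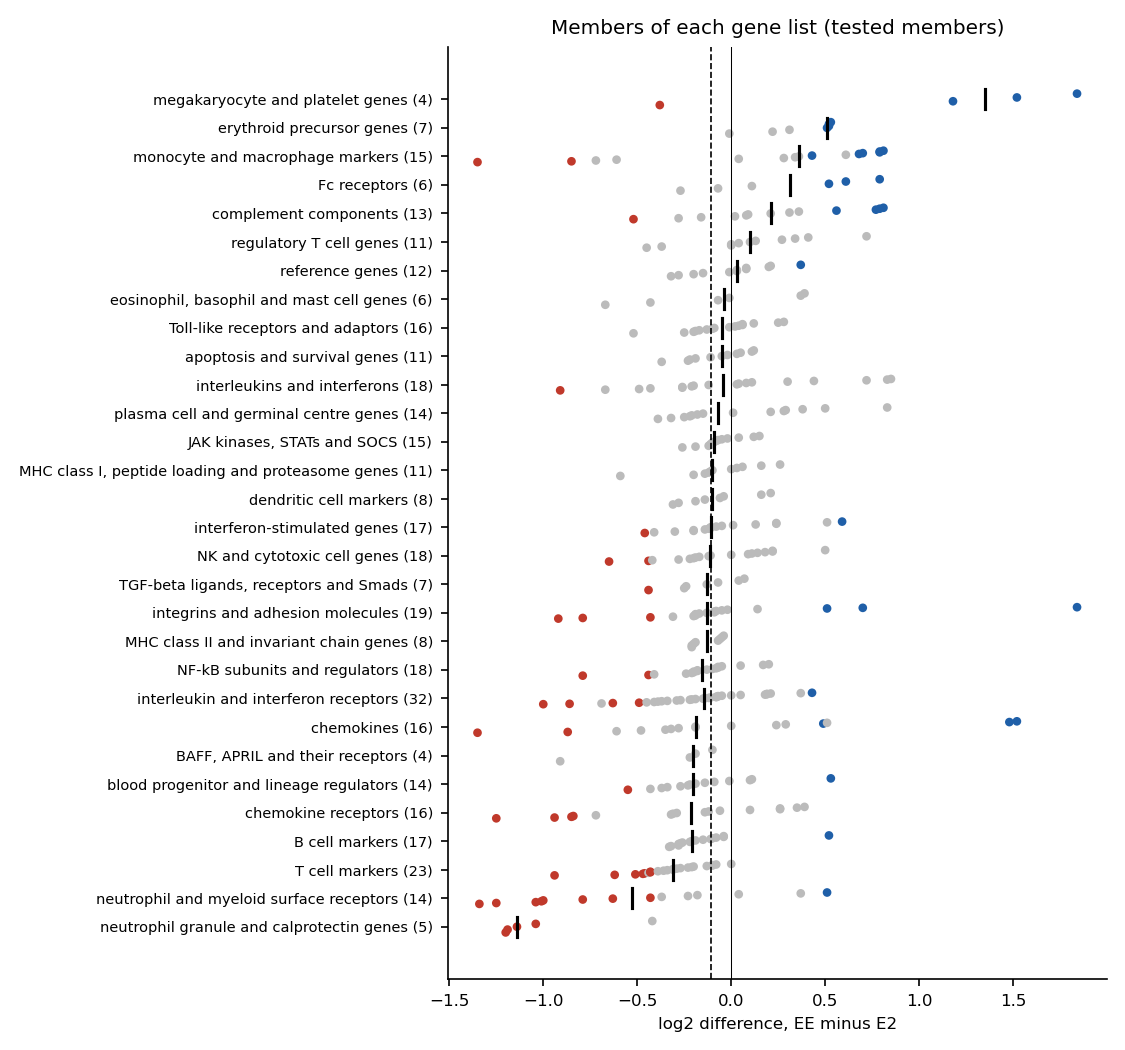
Log2 difference, EE minus E2, of each tested member of 30 gene lists, with the number tested in brackets. Blue and red points are members called higher and lower, black bars are list medians, and the dashed line is the median of all tested genes at -0.11. Platelet, erythroid and macrophage lists lie to the right, and T cell and neutrophil lists to the left.

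T cell genes were lower in EE in part. Ccr9 is the receptor that guides T cells to the gut and thymus, Cd247 and Cd3d are chains of the T cell receptor complex, and Cd2 is an adhesion receptor of T and natural killer (NK) cells. Of 23 markers tested, 7 were lower (30.4%) and 0 were higher in limma, and 14 passed an unadjusted p under 0.05, all lower. The median was -0.31, from -0.51 to -0.05 over the scalings. Of the 7, only Ccr9 and Cd247 were called under all 8 scalings, while Cd2 was called under 7 and Cd3d under 6. With median-ratio size factors 4 markers were called lower. The list also holds Cd3eap, which encodes an RNA polymerase subunit and not a T cell surface protein. Summed over the list, values were 21187 and 17537 in E2, 14204 and 15907 in EE, and 40699 and 45064 in placebo.

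Ccr9 read 314 and 263 in E2, 132 and 169 in EE, and 709 and 912 in placebo. Cd247 read 1116 and 901 in E2, 633 and 676 in EE, and 1904 and 2211 in placebo. Cd3d read 1941 and 1634 in E2, 1150 and 1350 in EE, and 3229 and 3010 in placebo. Placebo was highest for all 3 genes, E2 next and EE lowest, with no overlap between the groups. Ccr9 differed by -0.94 ± 0.17 SE (adjusted p = 2.78e-06), Cd247 by -0.62 ± 0.14 (0.000186) and Cd3d by -0.51 ± 0.13 (0.00154). Without E2 replicate 1 or EE replicate 11, only 1 of the 23 markers was called in either case. In those fits Cd247 had adjusted p-values of 0.0858 and 0.0722, and Cd3d 0.152 and 0.319.

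Cd2 read 3006 and 2518 in E2, 1873 and 2141 in EE, and 5324 and 5959 in placebo, a difference of -0.46 (adjusted p = 0.00459), which missed the threshold without E2 replicate 1 (0.226), EE replicate 11 (0.394) or EE replicate 14 (0.0544). Il7r, the interleukin-7 receptor of naive and memory T cells, read 945 and 686 in E2, 648 and 685 in EE, and 2853 and 3368 in placebo. Both EE samples of Il7r lay below both E2 samples, by as little as 1 unit, and its difference of -0.27 had an interval from -0.54 to -0.01 (0.165). Cd4, the coreceptor of helper T cells, differed by -0.31 (0.111), and Cd3e, another chain of the T cell receptor complex, by -0.08. Regulatory T cell genes had 0 of 11 called by limma, with 1 at an unadjusted p under 0.05, and 5 were called higher when scaled on column totals. Their transcription factor Foxp3 read 106 and 74 in E2, 105 and 120 in EE, and 160 and 160 in placebo (0.34, interval -0.09 to 0.77, 0.308).

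Of 18 NK and cytotoxic cell genes, 2 were lower and 0 higher in limma, and 3 passed an unadjusted p under 0.05. The share called lower, 11.1%, is close to the 10.9% of all tested genes. The 2 were Klrd1, the CD94 chain of NK cell receptors, at -0.44 (adjusted p = 0.0229), and Cd96, an adhesion receptor, at -0.65 (0.0227). Both were called under 3 of the 8 scalings. Without E2 replicate 1 they had adjusted p-values of 0.678 and 0.405, and without EE replicate 11 of 0.537 and 0.709. Cxcr6, a chemokine receptor of effector T and NK T cells, read 336 and 314 in E2, 154 and 212 in EE, and 491 and 751 in placebo. EE was lowest without overlap, and the difference of -0.84 ± 0.17 SE (3.25e-05) missed the threshold without E2 replicate 1 (0.0741) or EE replicate 11 (0.115).

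Chemokine genes split by gene. Cxcl12, which holds blood precursors in their niche and is made by stromal cells, read 35 and 26 in E2, 82 and 90 in EE, and 33 and 48 in placebo. Its EE samples stood above all others, and the difference of 1.48 ± 0.29 SE (adjusted p = 1.9e-05), or 2.79-fold, stayed called under every alternative. Of 16 chemokines tested, 3 were higher (Ppbp, Cxcl12 and Ccl24) and 2 lower (Ccl12 and Ccl9). These were 18.8% and 12.5%, against 5.25% and 10.9% of all tested genes, so the share lower was close to that of all genes. Ccl24, an eosinophil attractant, read 382 and 321 in E2, 455 and 532 in EE, and 104 and 116 in placebo (0.49, 0.0358), and lost its call without each estrogen sample (0.0753 to 0.453). Ccl9, a mouse myeloid chemokine, read 310 and 381 in E2, 180 and 195 in EE, and 347 and 170 in placebo (-0.87, 6.99e-05). It was called under 3 of the 8 scalings and not without E2 replicate 1 (0.0607) or E2 replicate 2 (0.138). Of 16 chemokine receptors, 4 were lower (Ccr2, Ccr9, Cxcr2 and Cxcr6) and 0 higher in limma, while 2 others became higher with median-ratio size factors.

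Fn1, fibronectin, is an extracellular matrix protein and read 122 and 181 in E2, 64 and 67 in EE, and 157 and 142 in placebo. EE was lowest without overlap, and the difference of -1.17 ± 0.22 SE (adjusted p = 8.24e-06) stayed called under every alternative. Il1rn, the interleukin-1 receptor antagonist, read 99 and 85 in E2, 37 and 63 in EE, and 57 and 28 in placebo (-0.91, 0.0102). It was called under 3 of the 8 scalings. The call was lost without E2 replicate 1 (difference of -0.80), E2 replicate 2 (-1.02) or EE replicate 11 (-0.54). Il1rn was the 1 gene called of 18 interleukins and interferons tested, or 5.6% lower, below the 10.9% of all tested genes.

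B cell and antibody genes differed little. B cell markers had 1 of 17 called, Cd24a, shared with the erythroid list, and 0 lower in limma, while 7 passed an unadjusted p under 0.05, against 28.7% of all tested genes. Their median was -0.21 in the deposited values and lay between -0.41 and 0.05 over the scalings, so its sign depended on the scaling. All 17 had a 95% interval within 2-fold. Cd79b, a chain of the B cell receptor, read 7275 and 6221 in E2, 5364 and 5707 in EE, and 10566 and 10843 in placebo (-0.28, interval -0.54 to -0.03, adjusted p = 0.13). Pax5, the B cell lineage factor, differed by the same -0.28 (0.14). Plasma cell and germinal centre genes had 0 of 14 called by limma and 5 at an unadjusted p under 0.05, and 6 were called higher when scaled on column totals. Prdm1, the plasma cell factor Blimp-1, read 194 and 163 in E2, 192 and 166 in EE, and 239 and 219 in placebo (0.01, interval -0.37 to 0.38, 0.994). Tnfsf13b, the B cell survival factor BAFF, read 47 and 27 in E2, 19 and 18 in EE, and 14 and 17 in placebo. Its EE samples lay at the placebo level and below both E2 samples, with a difference of -0.91 (interval -1.64 to -0.18) that missed the threshold (0.0718).

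Interferon-stimulated genes, a set often raised in lupus, had 1 of 17 higher and 1 lower, or 5.9% each. Of all tested genes 5.25% were higher and 10.9% lower, so the list shares were close to or below these. Irf7, a transcription factor of the interferon response, read 167 and 127 in E2, 214 and 227 in EE, and 186 and 150 in placebo (0.59 ± 0.19 SE, adjusted p = 0.0206). Ifitm1, an interferon-induced membrane protein, read 2247 and 1960 in E2, 1505 and 1552 in EE, and 3130 and 3050 in placebo (-0.46 ± 0.13, 0.00483). Both were free of overlap, in opposite directions. Without EE replicate 11 both lost the call (0.218 and 0.242), without EE replicate 14 also (0.249 and 0.105), Irf7 without E2 replicate 2 (0.224) and Ifitm1 without E2 replicate 1 (0.152). Ifng, interferon gamma, read 28 and 21 in E2, 23 and 19 in EE, and 35 and 32 in placebo (-0.21, interval -0.89 to 0.48, 0.739). Il10 read 22 and 13 in E2, 28 and 29 in EE, and 30 and 15 in placebo (0.72, interval -0.01 to 1.45, 0.184). Il6 (9 and 23 in E2, 9 and 18 in EE) and Il17a (21 and 13, 14 and 12) lay near background and were not tested.

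**Figure D4:**
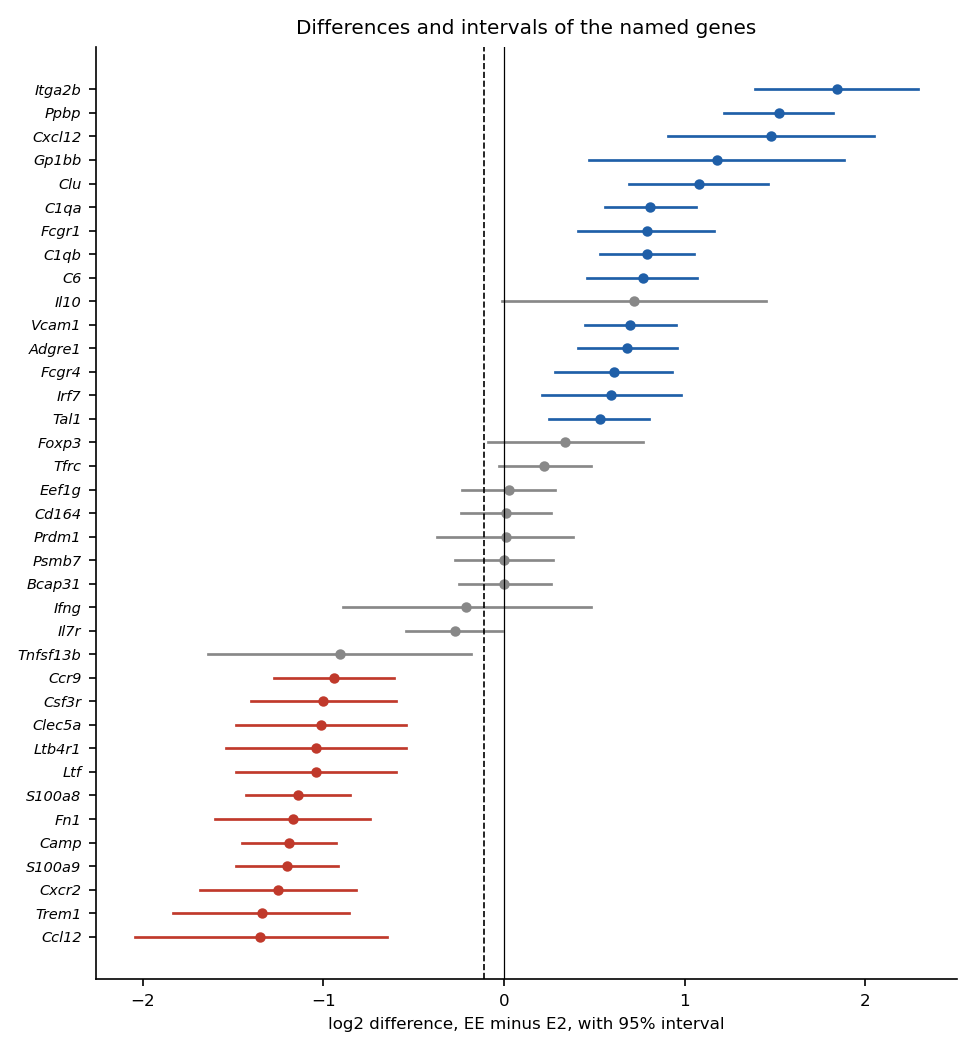
Log2 difference, EE minus E2, with its 95% interval from limma for 37 named genes in order of size. Blue and red genes were called higher and lower, grey genes were not called, and the dashed line is the median of all tested genes at -0.11. Intervals of low genes such as Ccl12, Gp1bb and Ifng are wide, and those of Bcap31 and Cd164 are narrow around 0.

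Several pathways had 0 genes called by limma. These were MHC class II genes (0 of 8, with 0 at an unadjusted p under 0.05), Toll-like receptors and their adaptors (0 of 16, with 0), JAK kinases and STATs (0 of 15, with 0) and apoptosis genes (0 of 11, with 0). MHC class I and proteasome genes (0 of 11, with 1), dendritic cell markers (0 of 8, with 1), genes of eosinophils, basophils and mast cells (0 of 6, with 1) and the BAFF family (0 of 4, with 1) also had 0, as did the plasma cell and regulatory T cell lists above and the 1 autophagy gene tested, Atg16l1 (-0.15, adjusted p = 0.524). Members of some of these lists were called under other scalings. Scaled on column totals these were 3 of 16 for the Toll-like receptor list, and more for the plasma cell and regulatory T cell lists, as given above. A missed threshold does not show equal response. The intervals below hold only for the deposited scaling and the spread shared over genes. Over the 8 scalings the median gene itself lay between -0.32 and 0.15. Of the 383 uncalled genes, 360 had a 95% interval within 2-fold and 243 within 1.5-fold, while 23 reached beyond 2-fold. The narrowest intervals belonged to Bcap31 (0.00, -0.25 to 0.26) and Cd164 (0.01, -0.24 to 0.26). Bcap31 read 1753 and 1635 in E2 and 1630 and 1762 in EE. Among the 12 reference genes 1 was higher, Oaz1 (0.37, adjusted p = 0.0365), which lost its call without each estrogen sample. The median of the 12 was 0.03. The deposited values look scaled on reference genes, and such scaling would itself hold this median near 0.

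**Figure D5:**
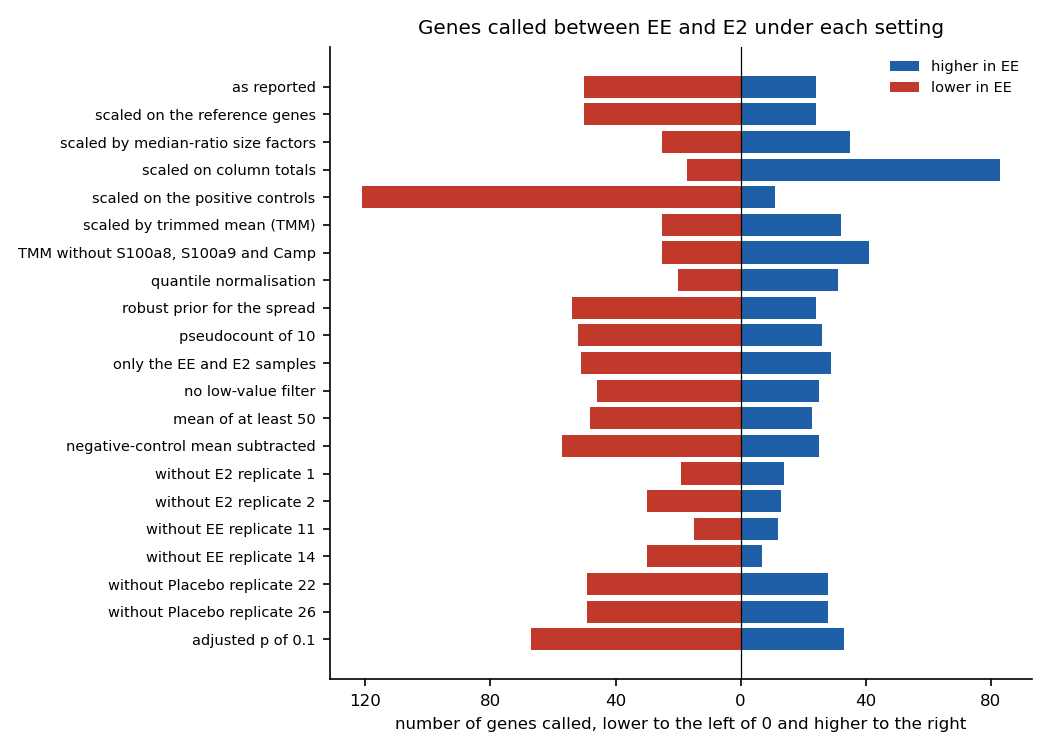
Number of genes called between EE and E2 under each setting, lower in EE to the left of 0 and higher to the right. The 74 calls as reported split 24 and 50, scaling on column totals or positive controls gave the most unequal splits, and leaving out 1 estrogen sample left 27 to 43 genes called.

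Several gene groups differed between the same 4 samples. Summed values were 182530 and 208123 in E2 and 81640 and 93428 in EE for neutrophil granule genes. For erythroid genes they were 33953 and 35683 in E2 and 47421 and 45682 in EE, and for platelet genes 2012 and 1757 in E2 and 3077 and 2717 in EE. Neutrophil sums were higher in both E2 samples, and erythroid, platelet and macrophage sums in both EE samples, none with overlap. The erythroid sums were mostly Cd24a, also a B cell marker, and Tfrc, which was not called. Cd24a read 18642 and 19953 in E2 and 28163 and 27017 in EE, and Tfrc 12165 and 12323 against 14368 and 14188. The part of one group in the differences of another was not tested. The p-values rest on 3 residual degrees of freedom and a spread shared over all genes that counted for 232, so they lean on that shared spread.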

How the data were processed

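RNA of 6 splenocyte samples (2 each of E2, EE and placebo) was measured with the NanoString nCounter mouse immunology panel. The deposited values are whole numbers and are treated as a score, because their pattern points to barcode counts that were scaled per sample and rounded before deposit. The sources used here do not give the steps of that scaling. Missing whole numbers in some samples showed a per-sample factor (for placebo replicate 26, a factor of 1.2378 can give 80.8% of whole numbers and gave 98.5% of its values), and the 12 named reference genes had geometric means between 1117.0 and 1184.8, as scaling on reference genes would leave them. The E2 factors were not settled by this pattern. A count model had been planned and was not run, since these are not raw counts.

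Of 575 rows, 561 were genes and 14 were spiked-in controls (6 positive, 8 negative), which stayed out of tests. Symbols came from a RefSeq gene table (GRCm38.p6), in which 549 gene rows had a symbol. The 12 unnamed rows are not described. The test took the 457 genes whose mean over the 6 samples was at least 20, and 104 genes stayed out. Deposited values were used with no further scaling as log2(value + 1) in limma 3.58.1 with an intensity trend (R 4.3.3), with group means over all 6 samples, the contrast EE minus E2, two-sided p-values and Benjamini-Hochberg adjustment at 0.05. A fold on this scale understates the change of low genes. The 95% intervals come from the standard error and the t distribution. The script was checked on simulated data. Differences between replicates exceeded counting noise (chi-square per degree of freedom of 14.66 in E2, 3.72 in EE and 19.27 in placebo, approximate for scaled values), so no sample was merged.

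The samples compared, the 31 gene lists, the tests and the rule for named genes were chosen with earlier results of these data known, so gene list counts are descriptions. The rule named the 12 largest increases and decreases that passed the threshold without overlap, the 2 to 4 members of each list with the lowest p, a set of genes of interest and the uncalled genes with the narrowest intervals. One gene picked by this rule is not reported here. Other genes named in the text were chosen after their values were seen. Alternatives changed the scaling, pseudocount, filter, background, threshold, prior and samples. Quantile normalisation and the robust prior in limma were added after the data were seen. Motif letters were searched on both strands of RefSeq promoter windows (Python 3.11.15, pandas 2.3.3).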

Additional observations from a re-analysis of the deposited data

Results flagged for a closer look

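Genes left out of the test for low values showed 3 signals above background in both samples of one estrogen group and in neither sample of the other or of placebo. C4a, a complement gene, averaged 22.5 in EE (25 and 20), against 8 and 9 in E2 and 7 and 9 in placebo. Its near-identical copy C4b makes a probe's assignment uncertain. Fcamr, a receptor for IgA and IgM, averaged 15.5 in E2 (16 and 15), against 11 and 11 in EE and 6 and 6 in placebo. Ccl11, the chemokine eotaxin, averaged 16.5 in E2 (19 and 14), against 6 and 11 in EE and 13 and 9 in placebo. These values lie close to background (10.15 to 13.74), where a few counts decide the order, and the differences were not tested.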

How the results depend on the processing

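Against 74 genes called (24 higher in EE, 50 lower), scaling on the positive controls gave 132 (11 and 121). Higher genes numbered 83 when scaled on column totals and 41 with the trimmed mean (TMM) computed without S100a8, S100a9 and Camp. Lower genes numbered 17 on column totals, 25 with median-ratio size factors, 25 with TMM, 25 with TMM without those genes, and 20 after quantile normalisation. Leaving out 1 of the 6 samples left 27 to 77 genes called, 7 to 28 higher and 15 to 49 lower. The causes of these shifts were not tested, apart from fewer samples in the fit. Counts under the other settings lay within 1.5 times the values as reported. None of the 74 calls turned sign under any setting. Of 52 named called genes, 15 stayed called under all 19 alternatives and 37 missed the threshold under at least 1. H2-Aa, uncalled as reported (-0.20), was called at 0.371 after quantile normalisation, which was chosen after seeing the data. When a sample is left out, its partner is assumed to vary like the other groups. No paired analysis was possible because the groups share no replicate numbers. The planned fits with count models were not run, since the values are not raw counts. Values near background (10.15 to 13.74) limit what can be seen for low genes such as Gp1bb.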

Other observations

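Of the 74 called genes, 17 belonged to no gene list, 15 of them lower in EE, and those described here were chosen after their values were seen. Cybb and Ncf4 encode subunits of the phagocyte NADPH oxidase, which makes superoxide. Cybb read 3871 and 3610 in E2, 2519 and 2717 in EE, and 3376 and 3449 in placebo (-0.51, adjusted p = 0.00114), and Ncf4 read 1190 and 1358 in E2, 904 and 908 in EE, and 1397 and 1360 in placebo (-0.49, 0.00398). EE was lowest for both without overlap, in contrast to the granule genes, for which placebo was lowest. Ncf4 was called under 3 of the 8 scalings and Cybb under 7, and without EE replicate 11 both missed the threshold (0.186 and 0.212), as Ncf4 did without E2 replicate 2 (0.093) or EE replicate 14 (0.105). Plaur, the urokinase receptor, read 873 and 778 in E2, 548 and 525 in EE, and 1062 and 1055 in placebo, and its difference of -0.62 (0.000322) was called under all 8 scalings and missed the threshold without EE replicate 14 (0.0542). Bst1, a surface enzyme of myeloid and B precursor cells, read 101 and 133 in E2, 55 and 66 in EE, and 77 and 54 in placebo (-0.93, 0.00273), was called under 3 of the 8 scalings and missed the threshold without E2 replicate 2 (0.134) or EE replicate 11 (0.175).

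Tnfrsf14, the herpesvirus entry mediator, was the other unlisted gene that was higher beside Clu. It read 1295 and 1355 in E2, 1794 and 1713 in EE, and 722 and 714 in placebo (0.40, adjusted p = 0.0226), in the order placebo, E2, EE without overlap, and lost its call without each estrogen sample in turn (0.0655 to 0.394).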
